A study of Mus musculus with 24 samples.

Results

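The genes described here are the 8 members of the E2F family, E2f1 to E2f8, and 2 of the retinoblastoma family, Rb1 and Rbl1. They were chosen by name, as 10 of the 55487 genes listed for each library, and all 10 passed the filter on low counts. E2F proteins are transcription factors that switch on the genes a cell needs to copy its DNA. The retinoblastoma or pocket proteins (pRB from Rb1, p107 from Rbl1, p130 from Rbl2) bind E2Fs and hold those genes silent until cyclin D and its kinases phosphorylate them. E2F1, E2F2 and E2F3 are known as activators, E2F4 and E2F5 work mainly as repressors with pocket proteins, E2F6 represses without them, and E2F7 and E2F8 are atypical repressors that bind DNA without a DP partner and damp the activators. In the intestine this circuit runs in the dividing cells of the crypts.

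Messenger RNA was measured in C57BL/6 mice that were either wild type (WT) or lacked Axin1 in intestinal epithelial cells (KO). The Axin1 protein holds together the machinery that has beta-catenin degraded and so restrains Wnt signalling. Each genotype had untreated colon, colon labelled day 7 and day 13 of DSS-treated mice, and colorectal tumours induced by azoxymethane (AOM) with DSS. DSS is dextran sulfate sodium, which injures the colonic epithelium. All 8 groups had 3 libraries, stated to be biological replicates, which makes 18 from colon and 6 from tumours. The sources used here do not give the ages or sex of the mice or the Cre line behind the deletion, and cells other than epithelium keep Axin1 in KO mice.

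Sequences upstream of 4 members are shown because the E2F family is known to act on promoters of its own genes, and because their genes differ in the results below. The words searched were TTTGGCGC, TTTCGCGC, TTTCCCGC and TTTGCCGC, which are forms of the known E2F site, on both strands in the 250 bases before a start site. RefSeq start sites (GRCm38.p6) were found for 7 of the 10 members. A word was present for E2f3, whose match began 11 bases before its start, E2f7 (198 bases before) and Rbl1 (18 bases before), against 1.86% of all 32851 promoters of the same length. In a second search, chosen after seeing the first, the first T was dropped from each word, which gave 7 letters. It matched E2f7 at 3 places, E2f8 at 1, E2f3 at 1 and Rbl1 at 1, and 7.89% of all promoters. Of a list of 18 genes of DNA replication known as E2F targets, 16 had a start site, and 9 of these held a 7-letter word. The window of E2f1 in this table lies inside the gene as GENCODE draws it and is not shown. E2f4, E2f5 and Rb1 were not in the table. The windows are E2f2 (the first of its listed start sites) at chr4:136172024-136172273 on the plus strand, E2f7 at chr10:110745189-110745438 on the plus strand, E2f8 at chr7:48881597-48881846 on the minus strand and Rbl1 at chr2:157204535-157204784 on the minus strand. Each ends at the base before the start site, and capitals mark the 7-letter words.
E2f2: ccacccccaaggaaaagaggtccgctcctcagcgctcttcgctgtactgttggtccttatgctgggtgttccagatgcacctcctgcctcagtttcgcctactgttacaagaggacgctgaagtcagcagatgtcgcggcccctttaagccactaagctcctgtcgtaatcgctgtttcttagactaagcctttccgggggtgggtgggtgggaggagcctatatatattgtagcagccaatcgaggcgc
E2f7: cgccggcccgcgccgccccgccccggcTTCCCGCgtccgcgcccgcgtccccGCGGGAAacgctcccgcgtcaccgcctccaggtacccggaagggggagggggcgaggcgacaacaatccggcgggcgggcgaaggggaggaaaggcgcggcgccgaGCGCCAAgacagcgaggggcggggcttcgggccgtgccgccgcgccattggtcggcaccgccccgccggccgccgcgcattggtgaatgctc
E2f8: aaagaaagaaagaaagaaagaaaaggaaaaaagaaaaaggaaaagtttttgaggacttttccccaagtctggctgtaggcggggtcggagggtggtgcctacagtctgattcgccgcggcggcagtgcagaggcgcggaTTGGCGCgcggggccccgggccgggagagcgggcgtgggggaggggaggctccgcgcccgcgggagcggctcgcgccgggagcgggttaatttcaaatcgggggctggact
Rbl1: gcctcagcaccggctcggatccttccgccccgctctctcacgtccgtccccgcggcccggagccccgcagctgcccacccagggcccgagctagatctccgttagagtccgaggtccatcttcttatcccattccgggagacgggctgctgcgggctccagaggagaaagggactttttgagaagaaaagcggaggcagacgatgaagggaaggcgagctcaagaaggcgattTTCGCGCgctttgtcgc
The E2f7 window carries its words at 223, 198 and 92 bases before the start, the E2f8 window at 111 and the Rbl1 window at 17. The E2f2 window holds none of these words, and the windows of E2f1 and E2f6, which are not shown, held none either. The first bases after the listed E2f2 start sites were not found in a GENCODE transcript. A match is a description of letters and shows no binding.

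Total expected counts ran from 15653300 to 28066996 per library. The targeted gene followed the labels: Axin1 lay between 46.2 and 58.6 CPM (counts scaled to library size) in the 12 WT libraries and between 13.8 and 19.3 CPM in the 12 KO libraries. Several measured features moved with the groups. Libraries with Y-linked expression numbered 2 of 3 in untreated WT, 3 of 3 in untreated KO, 0 of 3 and 1 of 3 at day 7 (WT, KO), 3 of 3 and 0 of 3 at day 13, and 2 of 3 in tumours of either genotype. The summed level of 7 smooth muscle genes was 2124 to 11594 CPM in colon and 143 to 298 CPM in tumours, with the highest value in WT day 7 replicate 2. Summed over 7 squamous epithelium genes, the level was 3919 CPM in WT day 13 replicate 3 and 1012 CPM in KO day 13 replicate 1, against at most 6.51 CPM in the other colon libraries. The 6 neutrophil genes summed to 16.4 to 155 CPM in WT and 1.66 to 3.62 CPM in KO at day 7, and to 136 to 303 CPM in tumours, against 0.959 to 2.19 CPM in untreated colon. The 8 epithelial markers were detected in every group, and their sum was 9826 to 16942 CPM in colon, 7524 to 11376 CPM in WT tumours and 4952 to 9323 CPM in KO tumours. In tumours against untreated colon, 6 of these 8 were lower and 1 higher in KO, and 1 was higher in WT. The Illumina sample numbers 9 to 14 each occur in a colon and in a tumour library, and the sources used here name no sequencing run, so whether colon and tumours were sequenced together is not known.

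At day 7 of DSS, 4 of the 10 genes rose in WT (E2f1, E2f2, E2f4, E2f7), where 8.52% of all 18102 genes tested rose, and 6 of 10 rose in KO (the same 4, E2f6 and E2f8), where 8.57% rose. From day 7 to day 13 the same 6 genes fell in KO, where 8.61% of genes fell. In WT none of the 10 passed in edgeR, where 0.0608% of genes were called, while DESeq2 called 1 (E2f1) and 3 had an unadjusted p under 0.05 (E2f1, E2f6, Rb1), against 751 and 3060 of all 18102 genes. WT libraries with Y-linked expression went from 0 of 3 at day 7 to 3 of 3 at day 13. The WT change between these days and this feature cannot be told apart. Tumours against untreated colon had 6 genes higher in WT (E2f1, E2f2, E2f3, E2f4, E2f6, E2f7; 27.6% of 19056 genes) and 4 in KO (E2f1, E2f2, E2f6, E2f7; 26.4%). Rb1 was the 1 gene lower in both genotypes, where 21.2% and 23.5% of genes were lower. E2f5 and Rbl1 passed in none of these 6 comparisons. These calls are from edgeR's quasi-likelihood test with Benjamini-Hochberg adjustment over all genes, at a threshold of 0.05. The comparisons share libraries: those of day 7 are compared both with untreated and with day 13 colon, and untreated colon is also compared with tumours. In bulk tissue, fewer cells of a type and less RNA per cell cannot be told apart.

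**Figure D1:**
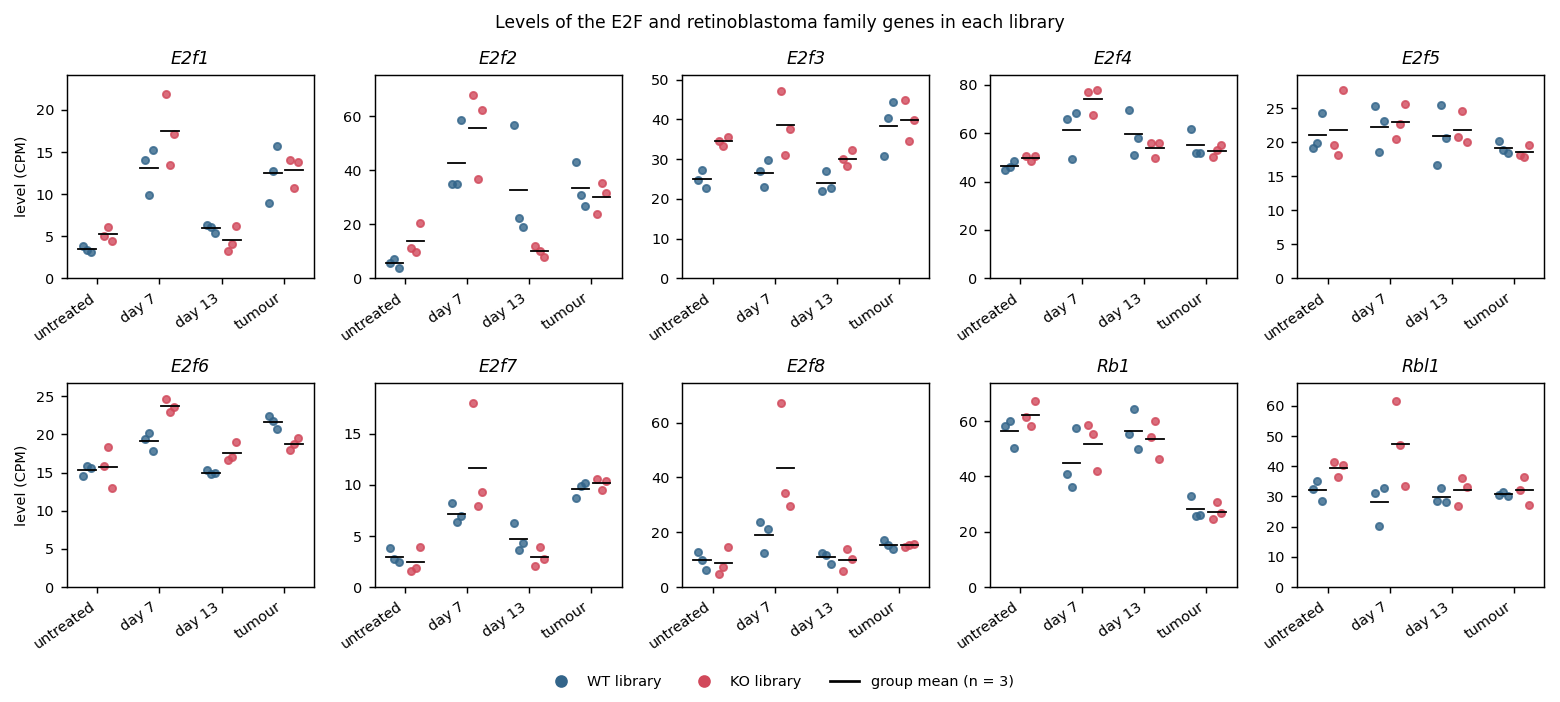
Level of each of the 10 genes in CPM (y axis, from 0, a scale of its own per gene) in untreated colon, at DSS day 7 and day 13, and in tumours (x axis). Points are libraries, blue for WT and red for KO, and bars are means of 3. E2f1 lies between 3.10 and 6.17 CPM in untreated and KO day 13 libraries and between 9.94 and 21.9 CPM in day 7 libraries.

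E2f4 had the highest level per transcript length in all 8 groups, from 38.3 ± 2.71 TPM (counts scaled to transcript length and library size; SD, n = 3) in untreated WT to 58.2 ± 5.55 TPM in KO at day 7. Its libraries lay above those of the next gene in every group. E2f7 was lowest in all 8, from 0.637 ± 0.359 TPM in untreated KO to 3.98 ± 0.458 TPM in KO tumours. In untreated WT colon the order was E2f4, Rb1 (21.5 TPM), E2f5 (18), Rbl1 (10.7), E2f6 (10.1), E2f3 (7.58), E2f8 (3.96), E2f1 (1.85), E2f2 (1.65) and E2f7 (0.867). There the libraries of Rbl1 and E2f6 overlapped, as did those of E2f1 and E2f2 and those of E2f2 and E2f7. In untreated KO colon, E2f2 (3.79 TPM) stood above E2f8 (3.66) and E2f1 (2.55), but neighbours among these 3 overlapped. At day 7 E2f2 stood 4th in WT, at 13 TPM, and 5th in KO, at 16.2 TPM, and it overlapped its neighbours in both. In KO at day 7, all neighbours from E2f5 (18.7 TPM) down to E2f1 (9.03 TPM) overlapped. In tumours E2f5 stood second, above Rb1, in both genotypes.

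**Figure D2:**
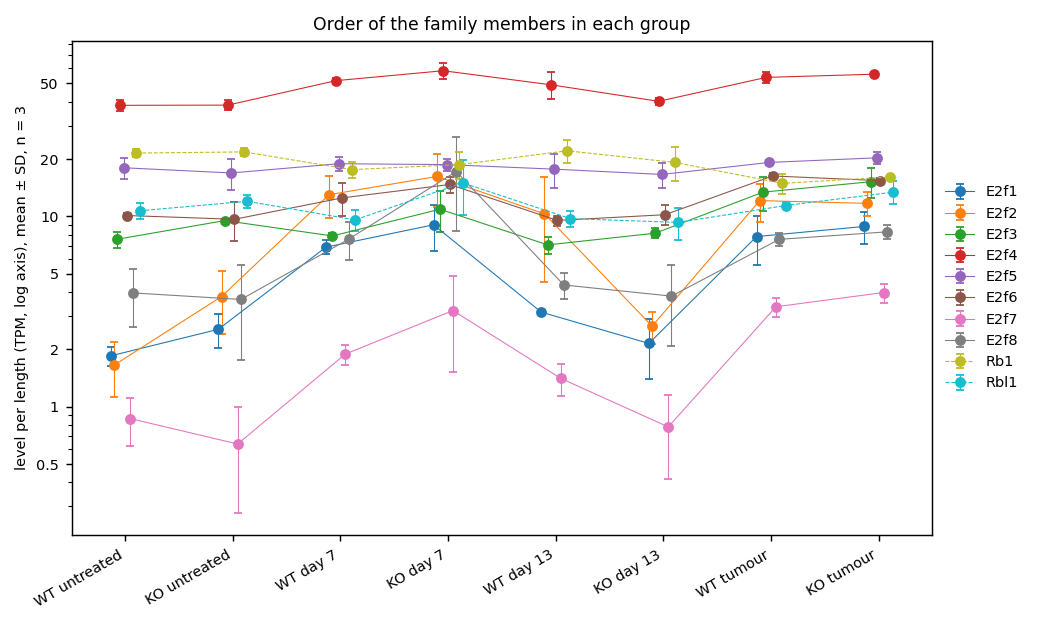
Mean level per length in TPM on a log axis (y) of the 10 genes in the 8 groups (x). Error bars are the SD of 3 libraries, and lines only join the values of a gene (dashed for Rb1 and Rbl1). E2f4 is at the top and E2f7 at the bottom of every group.

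Summed over E2f1 to E2f8, the level was 82.4 ± 2.47 TPM in untreated WT and 85.0 ± 2.18 TPM in untreated KO (SD, n = 3). It was 120 ± 2.68 TPM in WT and 148 ± 25.0 TPM in KO at day 7, then 103 ± 8.98 and 84.5 ± 4.08 TPM at day 13. Tumours had 133 ± 2.25 TPM in WT and 139 ± 6.72 TPM in KO. Between tumours and untreated colon the median over 15333 genes itself moved in TPM, by log2 0.26 in WT and 0.47 in KO. With CPM it moved by 0.04 and -0.02, so sums in TPM for tumours, here and below, include that shift of scale. The activators E2f1 to E2f3 made up 13.5% of this sum in untreated WT and 18.6% in untreated KO, 23.1% and 24.1% at day 7, 19.9% and 15.3% at day 13, and 25.0% and 25.6% in tumours. The atypical E2f7 and E2f8 made up 5.90% and 5.01% in untreated colon and 7.86% and 13.3% at day 7. The pocket protein genes Rb1, Rbl1 and Rbl2 together gave 55.7 TPM in untreated WT, 41.2 TPM in WT at day 7 and 43.7 TPM in WT tumours. In KO the sum was 57.1 ± 2.62 TPM untreated, 51.2 ± 10.4 TPM at day 7, where libraries overlapped the untreated ones, and 49.7 ± 3.60 TPM in tumours. Summed E2F over summed pocket protein TPM was 1.49 ± 0.176 in untreated WT and 1.49 ± 0.0885 in untreated KO. It was 2.92 ± 0.134 and 2.95 ± 0.628 at day 7, 2.08 ± 0.439 and 1.65 ± 0.159 at day 13, and 3.07 ± 0.220 and 2.82 ± 0.306 in tumours. In both genotypes the ratio was higher in each day 7 and tumour library than in each untreated library. These are ratios of RNA and carry no test.

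E2f1 encodes the activator best known for driving entry into S phase (gene at chr2:154559407-154569892, minus strand). Its level in untreated WT colon was 3.85, 3.40 and 3.10 CPM, and in untreated KO colon 5.06, 6.14 and 4.43 CPM. At day 7 it was 14, 9.94 and 15.3 CPM in WT and 21.9, 13.5 and 17.2 CPM in KO. Every day 7 library lay above every untreated library. The increase was 3.76-fold in WT (log2 1.91 ± 0.25 SE, adjusted p = 0.000727) and 3.44-fold in KO (1.78 ± 0.25, adjusted p = 0.000439). At day 13 E2f1 was 6.35, 6.11 and 5.38 CPM in WT and 3.22, 4.10 and 6.17 CPM in KO, below all day 7 libraries of its genotype. It fell by 2.0 on the log2 scale in KO (SE 0.25, adjusted p = 0.000167), while the WT value of -1.12 ± 0.24 did not pass (adjusted p = 0.0756). DESeq2 called that WT value with an adjusted p of 0.00143. Tumours had 8.90, 12.8 and 15.7 CPM in WT and 14.1, 10.7 and 13.8 CPM in KO. The gain over untreated colon was log2 1.92 ± 0.26 in WT (adjusted p = 1.01e-05) and 1.37 ± 0.25 in KO (adjusted p = 0.000216). The 5 calls of E2f1 held in every alternative and with each library left out, with adjusted p up to 0.0186. With the covariate of Y-linked expression the day 7 values were 2.16 in WT and 2.01 in KO.

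E2f2 was the activator with the widest range in this family here (chr4:136172394-136196057, plus strand). Among the windows shown, only its own held none of the words searched, and those of E2f1 and E2f6, not shown, held none either. Untreated WT colon had 5.57, 7.20 and 3.73 CPM and untreated KO colon 11.4, 9.94 and 20.6 CPM, with no overlap. At day 7 the level was 35, 35.1 and 58.5 CPM in WT and 68.0, 36.8 and 62.5 CPM in KO. This was a 7.72-fold increase in WT (log2 2.95 ± 0.44, adjusted p = 0.00137) and a 4.06-fold increase in KO (2.02 ± 0.42, adjusted p = 0.00560). Without the 4 libraries whose sample numbers repeat within colon, the KO value was 1.75 with an adjusted p of 0.0885. At day 13 WT had 56.9, 22.5 and 19.1 CPM and KO 11.9, 10.3 and 7.74 CPM. The call of this genotype difference was lost in 10 of 15 alternatives, as given below. E2f2 fell in KO (log2 -2.52 ± 0.43, adjusted p = 0.00125), and the WT value was -0.38 ± 0.40 (adjusted p = 0.689). Tumours had 43.2, 31.0 and 26.7 CPM in WT and 23.8, 35.3 and 31.5 CPM in KO, all above untreated libraries of their genotype. The tumour gain was log2 2.67 ± 0.41 in WT (adjusted p = 4.25e-05) and 1.16 ± 0.39 in KO (adjusted p = 0.0184). The KO call was lost without untreated KO replicate 1 (1.03, adjusted p = 0.0722), untreated KO replicate 2 (0.96, adjusted p = 0.0813), KO tumour replicate 2 (1.04, adjusted p = 0.0562) or the 4 libraries of repeated number (0.96, adjusted p = 0.0979).

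E2f3, the activator that did not pass at day 7 in either genotype (chr13:29906575-29986063, minus strand), was steadier. Its level was 24.8, 27.3 and 22.6 CPM in untreated WT and 34.6, 33.2 and 35.6 CPM in untreated KO. At day 7 it was 26.9, 23.0 and 29.7 CPM in WT and 47.1, 31.1 and 37.6 CPM in KO, and at day 13 22, 27.1 and 22.8 CPM in WT and 30, 28.2 and 32.3 CPM in KO. In each colon condition the lowest KO library was above the highest WT library. The day 7 change was log2 0.09 in WT (95% interval -0.21 to 0.38) and 0.19 in KO (-0.10 to 0.49). WT tumours had 30.7, 40.2 and 44.3 CPM, an increase of log2 0.69 ± 0.15 over untreated WT (adjusted p = 0.00102). KO tumours had 44.8, 34.5 and 39.7 CPM, and their value of 0.26 ± 0.15 did not pass (adjusted p = 0.155).

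Among the repressors that work with pocket proteins, E2f4 (chr8:105297663-105305370, plus strand) had small changes. It was 44.7, 46.2 and 48.6 CPM in untreated WT and 65.7, 49.3 and 68.2 CPM in WT at day 7. The WT increase was log2 0.39 ± 0.12 (adjusted p = 0.0440), and it was lost in 9 of 15 alternatives, among them each untreated WT library left out (adjusted p 0.0770 to 0.147), WT day 7 replicate 1 (0.114) and replicate 3 (0.157), and the Y-linked covariate (0.171). In KO it went from 50.4, 48.4 and 50.7 to 77.1, 67.6 and 77.8 CPM, an increase of 0.60 ± 0.12 (adjusted p = 0.00487). Without the 4 libraries of repeated number that value was 0.55 (adjusted p = 0.0510). In KO at day 13 it was 55.8, 49.6 and 55.8 CPM, log2 -0.50 ± 0.12 from day 7 (adjusted p = 0.0132). Left out alone, KO day 7 replicate 1 (adjusted p = 0.0550), KO day 7 replicate 3 (0.0589) or KO day 13 replicate 2 (0.0694) ended that call. WT tumours had 61.7, 51.7 and 52.0 CPM, a gain of 0.31 ± 0.12 (adjusted p = 0.0337) that was lost in 9 of 14 alternatives, among them RLE size factors (0.24, adjusted p = 0.102), each untreated WT library left out (adjusted p 0.0504 to 0.103) and WT tumour replicate 1 left out (0.153). KO tumours had 50.1, 53.1 and 55.0 CPM and did not pass (0.14 ± 0.12, adjusted p = 0.329).

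E2f5 (chr3:14578641-14606309, plus strand) had group means between 18.5 and 22.9 CPM and passed in no comparison. Its changes ran from log2 -0.18 ± 0.17 in KO tumours to 0.10 ± 0.19 in KO at day 7. On the TPM scale the 2 tumour values were 0.09 in WT and 0.26 in KO, of the opposite sign to -0.07 and -0.18 with CPM. E2f6, which represses without pocket proteins (chr12:16810963-16839742, plus strand), was 15.8, 18.4 and 13 CPM in untreated KO and 24.6, 22.9 and 23.6 CPM in KO at day 7. It rose in KO by log2 0.62 ± 0.12 (adjusted p = 0.00374), and the WT value was 0.32 ± 0.12 (adjusted p = 0.0854). In WT E2f6 passed with DESeq2 (0.34, adjusted p = 0.026) and with all 24 libraries fitted together (0.38, adjusted p = 0.0267). At day 13 in KO it was 16.6, 17 and 19.0 CPM, and the fall of 0.47 ± 0.12 on the log2 scale (adjusted p = 0.0183) was lost in 6 of 15 alternatives. Among these were fits without KO day 7 replicate 1, KO day 7 replicate 3, KO day 13 replicate 1 or KO day 13 replicate 2 (adjusted p 0.0544 to 0.0715). E2f6 was 22.4, 21.7 and 20.7 CPM in WT tumours against 14.6, 15.8 and 15.6 CPM in untreated WT, an increase of 0.56 ± 0.11 (adjusted p = 0.000384). The KO tumour libraries, at 18, 18.7 and 19.5 CPM, overlapped untreated KO. That gain of 0.31 ± 0.11 (adjusted p = 0.0236) was lost in 6 of 14 alternatives. It was lost without untreated KO replicate 1 (0.31, adjusted p = 0.0591), untreated KO replicate 3 (0.20, adjusted p = 0.143) or KO tumour replicate 3 (0.29, adjusted p = 0.0749). RLE size factors (0.25, adjusted p = 0.0530), no filter on low counts (0.25, adjusted p = 0.176) and a fit of only these groups (0.25, adjusted p = 0.21) ended it too.

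The atypical repressor gene E2f7 (chr10:110745439-110787384, plus strand), whose window held 3 of the 7-letter words, was 3.85, 2.72 and 2.41 CPM in untreated WT and 1.62, 1.88 and 3.95 CPM in untreated KO. At day 7 it was 8.19, 6.33 and 7.0 CPM in WT and 18, 7.93 and 9.26 CPM in KO, above untreated libraries in both genotypes. The increase was log2 2.27 ± 0.40 in KO (adjusted p = 0.00203) and 1.25 ± 0.39 in WT (adjusted p = 0.0415). The WT call was lost in 9 of 15 alternatives, among them any of the 6 libraries of the comparison left out (adjusted p 0.0608 to 0.124). At day 13 E2f7 was 2.03, 3.96 and 2.73 CPM in KO, a fall of 2.05 ± 0.40 on the log2 scale (adjusted p = 0.00328). WT had 6.26, 3.59 and 4.30 CPM and did not pass (-0.60 ± 0.38, adjusted p = 0.469). Tumours were tight, at 8.71, 9.87 and 10.2 CPM in WT and 10.6, 9.52 and 10.4 CPM in KO. They stood above untreated colon by log2 1.74 ± 0.35 in WT (adjusted p = 0.000514) and 2.09 ± 0.36 in KO (adjusted p = 0.000117).

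E2f8, its close relative (chr7:48866429-48881596, minus strand), moved with E2f7 in KO colon. Untreated KO had 4.65, 7.17 and 14.7 CPM, with replicate 3 well above the other 2, and KO at day 7 had 67.0, 34.3 and 29.5 CPM. The increase was 5.04-fold (log2 2.33 ± 0.45, adjusted p = 0.00349), and a fit of only these groups gave an adjusted p of 0.0503. At day 13 E2f8 was 6.00, 13.8 and 10.2 CPM in KO, a fall of 2.16 ± 0.45 on the log2 scale (adjusted p = 0.00476). WT colon had 12.9, 10 and 6.37 CPM untreated, 23.9, 12.4 and 21.1 CPM at day 7 and 12.3, 11.6 and 8.45 CPM at day 13. The WT day 7 value of 0.96 ± 0.43 did not pass (adjusted p = 0.140). Tumours had 17.2, 15.4 and 13.9 CPM in WT and 14.7, 15.5 and 15.8 CPM in KO, and neither comparison with untreated colon passed (0.73 ± 0.39, adjusted p = 0.126, and 0.85 ± 0.39, adjusted p = 0.0766). Without untreated KO replicate 3, the KO tumour value was 1.44 with an adjusted p of 0.00612.

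**Figure D3:**
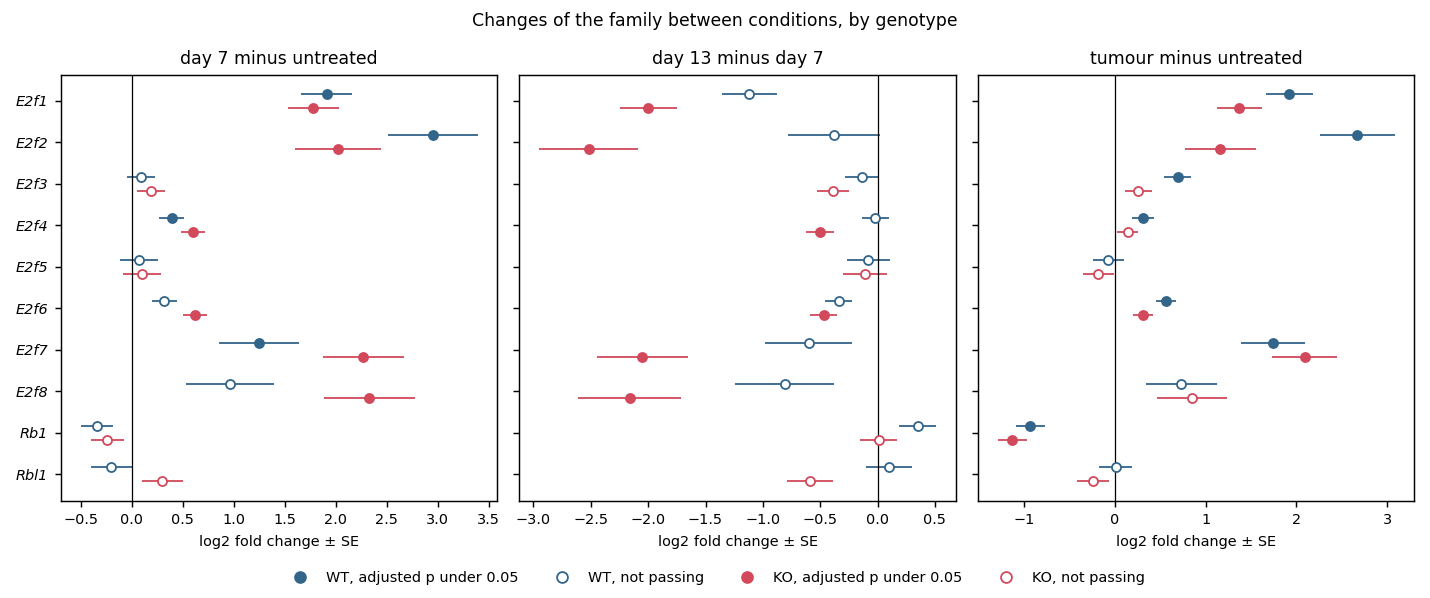
Log2 fold change with its SE (x axis) of each of the 10 genes (y axis) at day 7 against untreated, day 13 against day 7, and tumour against untreated, in WT (blue) and KO (red). Filled points passed an adjusted p of 0.05 in edgeR's test. E2f1, E2f2 and E2f7 have filled points in both genotypes at day 7 and in tumours, and Rb1 is the gene below 0 in tumours with filled points.

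Rb1 encodes pRB, the pocket protein that binds the activator E2Fs (chr14:73183673-73325822, minus strand). It was 58.3, 60.1 and 50.4 CPM in untreated WT and 61.6, 58.2 and 67.4 CPM in untreated KO, against 32.8, 25.8 and 25.9 CPM in WT tumours and 24.6, 30.7 and 26.7 CPM in KO tumours. Tumour and colon libraries did not overlap. The difference was log2 -0.93 ± 0.16 in WT (adjusted p = 0.000121) and -1.13 ± 0.16 in KO (adjusted p = 2.17e-05), and both calls held in every alternative. On the TPM scale the differences were smaller, -0.53 and -0.44. On that scale the median over 15333 genes moved by 0.26 in WT and 0.47 in KO between tumours and untreated colon, against 0.04 and -0.02 with CPM. Smooth muscle genes were far lower in tumours, and epithelial markers lower in KO tumours, as given above, and their part in the Rb1 difference was not tested. At day 7 Rb1 was 40.8, 36.1 and 57.6 CPM in WT (log2 -0.34 ± 0.16, adjusted p = 0.165) and 58.6, 55.2 and 42.0 CPM in KO (-0.24 ± 0.16, adjusted p = 0.388). Without WT day 7 replicate 3 the WT value was -0.55 with an adjusted p of 0.0338. At day 13 it was 55.4, 64.3 and 50.1 CPM in WT and 54.2, 60.1 and 46.5 CPM in KO, and neither change from day 7 passed (0.35 ± 0.16 and 0.01 ± 0.16).

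Rbl1 encodes p107, which pairs with E2F4 and is itself known as an E2F target (chr2:157145893-157204534, minus strand), and its window held a word close to the start. It was 32.5, 35.1 and 28.5 CPM in untreated WT, 31.3, 20.3 and 32.7 CPM in WT at day 7 and 30.5, 31.6 and 30 CPM in WT tumours. KO had 41.4, 36.3 and 40.5 CPM untreated, 61.6, 47.0 and 33.6 CPM at day 7, 27.0, 36.2 and 33.2 CPM at day 13 and 32.1, 36.5 and 27.3 CPM in tumours. No change between conditions passed. The nearest was the KO value from day 7 to day 13, log2 -0.59 ± 0.20 (adjusted p = 0.0607), which passed without KO day 7 replicate 3 (-0.79, adjusted p = 0.0178) and with DESeq2 (adjusted p = 0.0316). GENCODE draws a gene on the other strand within E2f3, E2f5, E2f7, E2f8, Rb1 and Rbl1, and since the strand setting is not given, reads of these 6 could include such transcripts.

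The partners and the regulators of the family were read from lists chosen by role. Tfdp1, a DP partner of the typical E2Fs, rose at day 7 by log2 0.68 in WT (adjusted p = 0.00272) and 0.92 in KO (adjusted p = 0.000347), and was higher in tumours by 1.17 and 0.78. The other DP gene, Tfdp2, was lower at day 7 in WT (-0.48, adjusted p = 0.0244) and in WT tumours (-0.55, adjusted p = 0.00686). In KO Tfdp2 did not pass at day 7 (-0.18, adjusted p = 0.414) or in tumours (-0.25, adjusted p = 0.201). Rbl2, which encodes p130, the pocket protein of resting cells, went the other way from Tfdp1: -0.69 and -0.61 at day 7, and -0.75 and -0.69 in tumours, all with adjusted p at or below 0.00304. Of 8 genes of the G1 cyclins and their kinases, 4 rose at day 7 in WT and 6 in KO by edgeR. Over all genes 8.52% and 8.57% rose. None passed as lower, but Cdk6 was at -0.78 in WT (adjusted p = 0.0652) and -0.66 in KO (adjusted p = 0.137), with no overlap of libraries. DESeq2 called 6 of the 8 in each genotype, counted in either direction, against 4071 (WT) and 3159 (KO) of all 18102 genes. With the Y-linked covariate edgeR called 2 and 4. Ccne1 (cyclin E1) rose by 1.91 and 2.17, and Ccnd1 (cyclin D1) by 1.29 and 0.92. In tumours 6 of the 8 were higher in WT and 5 in KO, where 27.6% and 26.4% of all genes were higher. Ccnd1 was up by 2.42 and 1.80 and Cdk4 by 1.66 and 1.73. Mybl2, an activator of late cell cycle genes and an E2F target, rose by 1.34 and 1.74 at day 7 and was higher by 2.31 and 2.16 in tumours. The other 6 genes of its list, the MuvB core and Foxm1, had no call at day 7 in WT by edgeR, at an unadjusted p under 0.05 or by DESeq2, and 1 in KO by edgeR, where Foxm1 rose by 2.28 (adjusted p = 0.0186).

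The CDK inhibitors keep pocket proteins active. Of the 6 tested in colon, 1 was lower at day 7 in WT (Cdkn1b, which encodes p27, -0.62, adjusted p = 0.0471, a call lost with the Y-linked covariate) and none passed in KO. DESeq2 called 3 of the 6 in KO, counted in either direction. By edgeR 3 had an unadjusted p under 0.05 there: Cdkn1b (-0.56) and Cdkn1c (-1.36) were lower and Cdkn2c (1.12) higher. Over all 18102 genes these criteria gave 3159 and 4849. From day 7 to day 13 edgeR called 2 of the 6 in KO, Cdkn1b at 0.89 (adjusted p = 0.00854) and Cdkn2c at -1.18 (adjusted p = 0.0456), and 0 in WT. With the Y-linked covariate it called 1 in KO. In tumours 2 of 7 were higher in WT and 2 in KO (Cdkn2a and Cdkn1c), while 2 were lower in WT (Cdkn1b and Cdkn2b) and 3 in KO (these and Cdkn1a). The shares in WT, 2 of 7 in either direction, are near those of all genes (27.6% higher and 21.2% lower). In KO 2 of 7 were higher and 3 lower, where 26.4% and 23.5% of all genes were. Cdkn2a, which encodes p16 and p19ARF, was 4.89, 3.06 and 25.5 CPM in WT tumours and 6.40, 5.82 and 3.18 CPM in KO tumours, against at most 0.124 CPM in untreated colon. Cdkn1c (p57) was 71.7, 54.0 and 16.8 CPM in WT tumours and 26.5, 20.7 and 66.6 CPM in KO tumours, against 3.23 to 11.1 CPM in untreated colon.

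The replication genes known as E2F targets rose at day 7 in 15 of 18 cases in WT and 18 of 18 in KO, where 8.52% and 8.57% of all genes rose. Their medians were log2 1.31 and 1.49, where the median over all genes was 0.03 and -0.04. Rrm2, a subunit of the enzyme that makes deoxynucleotides, went from 7.56, 7.76 and 6.47 CPM in untreated WT to 42.0, 30.6 and 33.7 CPM at day 7 (log2 2.28, adjusted p = 0.000701). Mcm3, a subunit of the replicative helicase, rose by 1.96 and Uhrf1, which carries DNA methylation through replication, by 1.74 in WT, with 1.78 and 2.02 in KO. From day 7 to day 13 all 18 fell in KO (median -1.55), where 8.61% of all genes fell. In WT none of the 18 passed by edgeR's test (median -0.64), although DESeq2 called 8 and 15 had an unadjusted p under 0.05. Over all 18102 genes these criteria gave 751 and 3060. In tumours 17 of 18 were higher in WT (median 1.58) and 17 of 18 in KO (median 1.51), where 27.6% and 26.4% of all genes were higher. Over all alternatives the day 7 counts were 11 to 15 in WT and 15 to 18 in KO, and the KO day 13 counts 16 to 18.

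Genes of the later cell cycle, from G2 and mitosis, did not show this pattern in WT. At day 7 none of 10 passed in WT by edgeR's test, at an unadjusted p under 0.05 or by DESeq2, with a median of log2 0.18. In KO 6 of 10 rose, with a median of 1.87. Of all genes 8.52% rose in WT and 8.57% in KO. Mki67, the proliferation marker Ki-67, was 240, 218 and 124 CPM in untreated WT and 231, 87.3 and 117 CPM in WT at day 7. It was 32.7, 45.5 and 200 CPM in untreated KO and 403, 396 and 214 CPM in KO at day 7. Untreated KO replicate 3 lay within the range of the WT libraries, and the other 2 lay below all of these. The KO count of 6 rests on few libraries: it was 10 without untreated KO replicate 3, and 1 without untreated KO replicate 1, untreated KO replicate 2 or KO day 7 replicate 1, 2 without KO day 7 replicate 2, 2 with the Y-linked covariate, 3 without the squamous and muscle libraries and 0 in a fit of only these groups. From day 7 to day 13 in KO 3 of 10 fell (median -1.54), where 8.61% of all genes fell. None of the 10 passed as lower with the Y-linked covariate, with no filter on low counts, or without KO day 7 replicate 1, KO day 7 replicate 2, KO day 13 replicate 1 or KO day 13 replicate 3. Tumours had 1 of 10 higher in WT (Top2a, a topoisomerase, 1.36, adjusted p = 0.0171) and 9 of 10 in KO (median 1.94). Of all genes 27.6% were higher in WT tumours and 26.4% in KO tumours. The WT tumour count was 8 and the KO count 3 when only those groups were fitted, without untreated WT replicate 3 the WT count was 0, and without untreated KO replicate 1 or replicate 2 the KO count was 6. The tests of the genotype difference in these changes are given with the interaction terms.

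**Figure D4:**
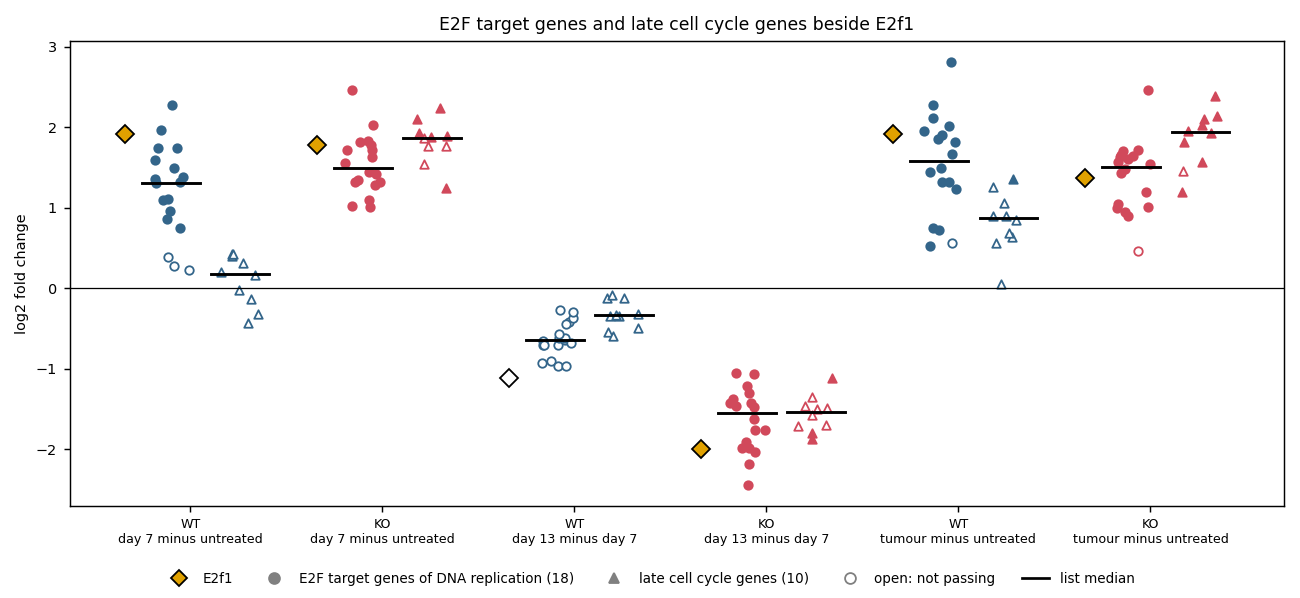
Log2 fold change (y axis) of E2f1 (diamonds, yellow where filled), the 18 E2F target genes of DNA replication (circles) and the 10 late cell cycle genes (triangles) in 6 comparisons (x axis), with lists in blue for WT and red for KO. Filled symbols passed an adjusted p of 0.05 and lines are list medians. At day 7 the target median is 1.31 in WT and 1.49 in KO, and the late gene median 0.18 and 1.87.

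Loss of Axin1 was then compared with WT within each condition. In untreated colon none of the 10 genes passed, where 0.011% of genes were called. By edgeR's test the unadjusted p was under 0.05 for 3 of the 10 (E2f1, E2f2, E2f3), and DESeq2 called 0. Over all 18102 genes these numbers were 1182 and 65. The largest values were E2f2 at log2 1.32 (95% interval 0.43 to 2.22, adjusted p = 0.611) and E2f1 at 0.57 (0.04 to 1.09, adjusted p = 0.758). At day 7 none passed either, where 0.00552% were called, while DESeq2 called 4 (E2f3, E2f6, E2f8, Rbl1) and 5 had an unadjusted p under 0.05 in edgeR. Over all 18102 genes these criteria gave 2454 and 4887. Rbl1 was higher in KO by 0.77 ± 0.20 and E2f3 by 0.55 ± 0.14, both with an adjusted p of 0.0647. Without WT day 7 replicate 3 both passed, Rbl1 at 0.90 (adjusted p = 0.0275) and E2f3 at 0.65 (adjusted p = 0.0256), and Rbl1 also passed without WT day 7 replicate 1 (0.85, adjusted p = 0.0494). Of the 18 replication targets none passed at day 7 in edgeR (median log2 0.68), with 14 at an unadjusted p under 0.05 and 10 called by DESeq2. In tumours none of the 10 passed and none had an unadjusted p under 0.05, where edgeR called 0% of 17245 genes, with 654 at an unadjusted p under 0.05 and 22 called by DESeq2. The widest tumour interval was that of E2f1, -0.54 to 0.63, and the estimates ran from -0.21 (E2f6) to 0.08 (E2f7).

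At day 13, E2f2 was the 1 gene of the 10 that passed, where 2.51% of genes were called. It was 3.35-fold lower in KO (log2 -1.74 ± 0.42, adjusted p = 0.0406), from the libraries given above. This call was lost in 10 of 15 alternatives: -1.10 without WT day 13 replicate 1 (adjusted p = 0.198), -2.0 without WT day 13 replicate 3 (0.0558), -1.88, -1.77 and -1.58 without KO day 13 replicates 1, 2 and 3 (0.124, 0.126 and 0.163), and -1.19 with the Y-linked covariate (0.481). Y-linked expression was present in all 3 WT and none of the KO libraries at day 13, so genotype and this feature cannot be told apart there. The 6 neutrophil genes summed to 37.0 to 328 CPM in these WT libraries and 1.36 to 11 CPM in KO, and their part was not tested. Over the mean of the 3 colon conditions, E2f3 alone passed, where 4.84% of genes were called: it was 1.35-fold higher in KO (0.43 ± 0.08, adjusted p = 0.0135). Over the same mean, 5 of 6 fibroblast, 6 of 6 monocyte and macrophage and 3 of 6 neutrophil markers were lower in KO, and their part in the E2f3 difference was not tested. The E2f3 call held with any single library left out and with the Y-linked covariate (0.46, adjusted p = 0.0185), and not without the squamous and muscle libraries (0.40, adjusted p = 0.0702) or without the 4 libraries of repeated number (0.46, adjusted p = 0.129). Rbl1 was close to the threshold over this mean (0.37 ± 0.11, adjusted p = 0.0654), and passed with the Y-linked covariate (0.41, adjusted p = 0.0475), without WT day 7 replicate 3 (0.42, adjusted p = 0.0368) or without KO day 7 replicate 3 (0.44, adjusted p = 0.0463).

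Whether the changes themselves differed between genotypes was tested by interaction terms. No member passed for the day 7 response, the change from day 7 to day 13, or the tumour difference, where 0% of genes were called by edgeR in each of the 3. An unadjusted p under 0.05 was found for 1, 6 and 1 members, and DESeq2 called 0, 1 and 0. Over all genes it was found for 2487, 2125 and 1652, with 363, 282 and 91 called by DESeq2. For the day 7 response E2f8 had the largest value, log2 1.38 greater in KO (95% interval 0.07 to 2.68, adjusted p = 0.340). From day 7 to day 13 E2f2 fell further in KO by 2.14 (interval -3.37 to -0.91, adjusted p = 0.202), and this was the term that DESeq2 called (adjusted p = 0.0289). E2f7 had -1.45 (-2.62 to -0.29, adjusted p = 0.315) and E2f1 -0.87 (-1.60 to -0.14, adjusted p = 0.335) in the same term. None of the 10 late cell cycle genes passed for the day 7 response, with a median of 1.61, where DESeq2 called 0 and 4 had an unadjusted p under 0.05 in edgeR. For the change from day 7 to day 13 none of these 10 passed in edgeR (median -1.22), DESeq2 called 0, and 1 had an unadjusted p under 0.05. For the tumour difference edgeR and DESeq2 called 0 of the 10 (median 1.04), and 0 had an unadjusted p under 0.05. Of the 18 replication targets none passed in edgeR for the change from day 7 to day 13 (median -1.03), with 15 at an unadjusted p under 0.05 and 7 called by DESeq2. By edgeR, calls made in KO and missed in WT are therefore not shown to differ between the genotypes, while DESeq2 called the difference for E2f2 and these 7 targets.

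Genes with the pattern most like a member were found by the root mean square difference of centred log2 CPM over the 24 libraries, among 18912 genes, for the 5 members whose group means spanned more than 1 on the log2 scale. Nearest to E2f1 were Uhrf1 (0.145), Hells (0.172) and Mcm3 (0.188). Uhrf1 and Mcm3 are in the target list above, and Hells encodes a chromatin remodeller. Nearest to E2f7 were Bard1 (0.192), Clspn (0.243) and Trip13 (0.243). Bard1 encodes a DNA repair protein. E2f2 had no gene as close, with Hesx1 (0.546), Mthfd2 (0.550) and Aunip (0.558) the nearest. Nearest to Rb1 were Pptc7 (0.162), Clint1 (0.163) and Elf4 (0.166).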

How the data were processed

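Total RNA was extracted from colon tissue and colorectal tumours and sequenced on Illumina libraries, per the labels' protocols. The authors deposited expected counts and TPM per gene that the submitters' processing notes credit to STAR 2.7.6a, RSEM 1.3.1 and GRCm38. Which annotation release and strand setting they used is not given in the sources here. Expected counts were rounded and all 55487 gene IDs were kept in library sizes, 346 of them without a symbol in the name table. Genes passing edgeR's filter (10 counts in enough libraries, 15 in total) were fitted with edgeR 4.0.16 in R 4.3.3 (TMM, quasi-likelihood F test, Benjamini-Hochberg over all genes, threshold 0.05): 18 colon libraries (18102 genes), 6 tumours (17245) or all 24 (19056). SEs are the fold change over the root of F. CPM are TMM-scaled, and deposited TPM serve to compare genes. The fit was tested on simulated data. Named genes are the members, list genes with the smallest p and the 3 nearest by pattern; other genes were named after their values were seen. The genes nearest to E2f8 are not reported here. Members and lists were chosen with earlier results of these data known. Alternatives were DESeq2 1.42.0, RLE factors, filters, other sets of libraries, a Y-linked covariate and 36 fits with a library left out. Replicates are stated to be biological.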

Additional observations from a re-analysis of the deposited data

How the results depend on the processing

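No paired analysis was possible because the labels give no replicate numbers, and libraries were numbered only in accession order. No value that passed changed direction under any alternative, while some that did not pass crossed 0, such as E2f8 for KO against WT at day 13 (-0.14, with alternatives from -0.44 to 0.76). Of the 10 members, edgeR called 0 for KO against WT at day 7, against 4 with DESeq2, 1 with all 24 libraries fitted together and 0 to 2 with a library left out. At day 13 the count was 1, against 0 with no filter, the Y-linked covariate, the 4 libraries of repeated number left out, only the groups compared or the squamous and muscle libraries left out (chosen after seeing the data), and 0 to 1 with a library left out. Over the mean of the colon conditions it was 1, against 2 with the Y-linked covariate, DESeq2 or all 24 libraries, 0 without the 4 libraries of repeated number or without the squamous and muscle libraries, and 1 to 2 with a library left out. For day 7 against untreated in WT it was 4, against 2 without the 4 libraries of repeated number or with only the groups compared, 5 with DESeq2, and 2 to 3 with a library left out. DESeq2 called 1 against 0 for day 13 against day 7 in WT and 1 against 0 for the genotype difference in that change. For tumours against untreated in KO the count was 5, and 3 to 5 with a library left out. With TPM in place of CPM, the log2 ratio of the E2f3 means in KO tumours and WT day 13 was 1.10, that of E2f5 in KO day 7 and KO tumours was -0.12, and that of Rb1 in untreated KO and KO tumours was 0.44; the cause was not tested.

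Calls over all genes moved more. With a library left out, they ran from 1 to 2441 for KO against WT at day 7 (1 with all libraries), from 1 to 1380 at day 13 (455) and from 221 to 2248 over the colon mean (877), and the other alternatives gave 1 to 2454, 1 to 1337 and 2 to 2467. They gave 1 to 65 for untreated colon (2), 880 to 4071 for day 7 in WT (2949), 949 to 3159 in KO (2288), 0 to 751 for day 13 in WT (11), 1493 to 3603 in KO (2321), and 0 to 363, 0 to 282 and 0 to 91 for the 3 interactions (0 each).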
